A study of Mus musculus with 3 samples.

Results

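Accessibility of 7 genes of bone formation was followed across nuclei of the mouse embryo, namely the transcription factor genes Runx2, Sp7 and Dlx3, and the genes Alpl, Ibsp, Spp1 and P4ha2, which encode products for mineral and collagen matrix. They were chosen by name, 7 of 21602 protein-coding genes counted. The measurement was single-nucleus ATAC-seq (snATAC-seq), in which the transposase Tn5 cuts accessible DNA and each nucleus receives its own barcode. All 3 libraries came from wild-type (WT) C57BL/6JRj embryos, with a single library at each of the embryonic stages, which were E12.5, then E13.5, then E15.5. Nuclei were isolated from frozen sections of littermates of the embryos profiled by spatial ATAC, stained with 7-AAD and sorted by flow cytometry. The deposited table assigned 1879 nuclei to numbered clusters. Clusters 1 and 3 together (463 nuclei, with 35, 258 and 170 by increasing stage) were set against the 8 other clusters, here the rest (987 nuclei, with 48, 551 and 388). Clusters 2 and 4 (429 nuclei, median of 1855 unique fragments) were kept apart because they were shallow.

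Osteoblasts, the cells that lay down bone, arise from mesenchyme. Runx2 starts this programme, Sp7 (osterix) acts downstream of Runx2, and Dlx3 is a homeobox factor of bone, tooth and skin. The differentiating cells assemble collagen I, whose prolines are hydroxylated by enzymes that include the P4ha2 product, and then mineralize it with the help of the phosphatase encoded by Alpl and of the acidic proteins bone sialoprotein (Ibsp) and osteopontin (Spp1).

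Levels are given as unique fragments overlapping the gene body and the 2 kb upstream of it, per 1000000 such fragments over all counted genes in the same nuclei (CPM). Accessibility is not expression, and more nuclei of 1 kind in a cluster cannot be told apart from more open DNA per nucleus. The summed level of 6 mesenchyme markers was 487 to 638 CPM by library in clusters 1 and 3 and 202 to 245 CPM in the rest. All 6 (Twist1, Twist2, Prrx1, Col1a1, Col1a2 and Pdgfra) lay at least 1.5-fold above the mean of the other clusters in cluster 1, and all 6 did so in cluster 3. In cluster 1 the leading genes were Kcne4, Twist1 and Col3a1, with Lum, Lox, Col1a1 and Col1a2 among the first 10. In cluster 3 they were Olfr1254, Gm12728 and Olfr1309, with other olfactory receptor genes among the first 10, so cluster 3 was given no cell type name. Nuclei of cluster 3 were the deepest (median of 105158 unique fragments, against 57306 in cluster 1), and a smaller share of their fragments lay in promoters (6.00% to 7.44% by library, against 12.8% to 15.1% in cluster 1 and 9.72% to 12.7% in the rest). The part of this difference in the results was not tested. Markers of other cell types were summed likewise, with values by library for clusters 1 and 3 and then for the rest. The 6 chondrocyte genes had 314 to 349 and 254 to 303 CPM. The 6 osteoclast genes had 123 to 169 and 140 to 150 CPM. The 6 endothelial genes had 477 to 540 and 395 to 429 CPM. The lists for neural progenitors, erythroid cells, and Schwann cells with neural crest were lower in clusters 1 and 3, without overlap. In the edgeR fit of clusters 1 and 3 against the rest, none of the chondrocyte or osteoclast genes was called higher (adjusted p under 0.05). Of the 6 endothelial genes, 1 was called higher. By cluster, 2 of the 6 chondrocyte genes lay at least 1.5-fold above the mean of the other clusters in cluster 3. In cluster 1, 0 did so, and in cluster 7 all 6. Of the 6 osteoclast genes, 1 did so in cluster 1 and 1 in cluster 3. Of the 6 endothelial genes, 1 did so in cluster 1, 2 in cluster 3 and 6 in cluster 8.

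The promoter sequences below carry the letters searched at the members' own start sites. They are the 250 bases upstream of the RefSeq transcript start (assembly GRCm38.p6, the same coordinates as mm10), read 5′ to 3′ on the strand of the gene. Capitals mark every match on the printed strand or, as the reverse complement, on the other one, to the RUNX core TGTGGT, the homeodomain core TAATTA, the GC box GGGCGG and the TATA box TATAAA. The promoter table matched 5 of the 7 members, with 7 entries in all. The Ibsp entry and the second entries of Alpl and Spp1 are not printed. Sp7 and Dlx3 had no entry.
Runx2 promoter, chr17:44814628-44814877: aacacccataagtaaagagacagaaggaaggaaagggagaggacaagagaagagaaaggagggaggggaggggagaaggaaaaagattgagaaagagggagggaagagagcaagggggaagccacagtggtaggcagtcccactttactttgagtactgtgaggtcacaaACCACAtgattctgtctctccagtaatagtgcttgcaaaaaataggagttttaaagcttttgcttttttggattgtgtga
Alpl promoter, chr4:137796385-137796634: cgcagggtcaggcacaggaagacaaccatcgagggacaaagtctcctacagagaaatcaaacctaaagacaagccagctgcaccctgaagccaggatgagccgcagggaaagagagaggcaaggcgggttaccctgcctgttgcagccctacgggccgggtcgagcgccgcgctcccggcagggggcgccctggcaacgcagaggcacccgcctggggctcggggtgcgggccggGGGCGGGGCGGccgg
Spp1 promoter, chr5:104434861-104435110: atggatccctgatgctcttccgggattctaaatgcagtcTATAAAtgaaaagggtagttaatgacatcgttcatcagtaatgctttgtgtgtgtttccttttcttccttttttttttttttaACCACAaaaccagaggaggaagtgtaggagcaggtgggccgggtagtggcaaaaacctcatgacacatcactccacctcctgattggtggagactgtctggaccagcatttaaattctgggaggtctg
P4ha2 promoter, chr11:54100674-54100923: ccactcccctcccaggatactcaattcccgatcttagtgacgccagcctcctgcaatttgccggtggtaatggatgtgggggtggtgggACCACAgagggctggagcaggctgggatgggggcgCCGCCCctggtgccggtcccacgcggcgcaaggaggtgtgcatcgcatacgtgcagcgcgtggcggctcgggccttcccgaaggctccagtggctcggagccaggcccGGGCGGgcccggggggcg
The RUNX core lay 80 to 75 bases upstream of the start in the Runx2 promoter, 128 to 123 bases upstream in that of Spp1 and 161 to 156 bases upstream in that of P4ha2, in each on the strand opposite to the gene. It occurred in 14.0% of the 32851 promoters of that length, the homeodomain core in 4.84%, the GC box in 32.7% and the TATA box in 12.4%. Alpl had 2 GC boxes that overlap, between 15 and 5 bases upstream. P4ha2 had GC boxes 126 to 121 and 18 to 13 bases upstream. The Ibsp promoter held a TATA box on the opposite strand 28 to 23 bases upstream. The second Spp1 entry held the homeodomain core 122 to 117 bases upstream of its own start. In the second Alpl entry a TATA box lay on the opposite strand 192 to 187 bases upstream. A match describes the letters in the window and is not evidence of binding.

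Runx2 (ENSMUSG00000039153.16, mm10 chr17:44495987-44814797, minus strand) had the smallest adjusted p of the 7 genes. In clusters 1 and 3 its level was 394 CPM at E12.5, 425 CPM for E13.5 and 367 CPM for E15.5, and in the rest it was 245, 220 and 225 CPM. Values of the 3 libraries are given in this order of stages throughout. Every library of clusters 1 and 3 lay above every library of the rest. The fitted log2 fold change was 0.81 ± 0.14 (SE, 3 libraries per side, edgeR quasi-likelihood test with the library as a block, adjusted p = 9.58e-06).

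Sp7 (ENSMUSG00000060284.7, chr15:102356606-102367182, minus strand) was likewise higher, from 38.6, 34.9 and 35.8 CPM in clusters 1 and 3 to 21.4, 19.95 and 20.8 CPM in the rest. The libraries of both sides did not overlap. Its log2 fold change was 0.84 ± 0.19 (SE, edgeR adjusted p = 0.000923). Without the E13.5 library, the deepest, the change was the same size and the adjusted p was 0.0623.

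P4ha2 (ENSMUSG00000018906.14, chr11:54100095-54131665, plus strand), an alpha subunit of prolyl 4-hydroxylase, was the third gene called. It measured 79.1, 90.4 and 97.99 CPM in clusters 1 and 3 and 44.4, 64.5 and 64.5 CPM in the rest, without overlap, with a log2 fold change of 0.65 ± 0.15 (SE, edgeR adjusted p = 0.0014). Thus 3 of the 7 genes were called higher and 0 lower at an adjusted p under 0.05. Over all 20156 genes tested, 5.53% were called higher and 2.58% lower. DESeq2 called the same 3 members. With the 10 clusters weighted equally, the value of P4ha2 was 1.82, and cluster 11, the shallowest, then counts as much as the others with 0 P4ha2 fragments. The clusters were drawn from these same nuclei, so the fit describes the clusters and is not independent evidence for them.

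**Figure D1:**
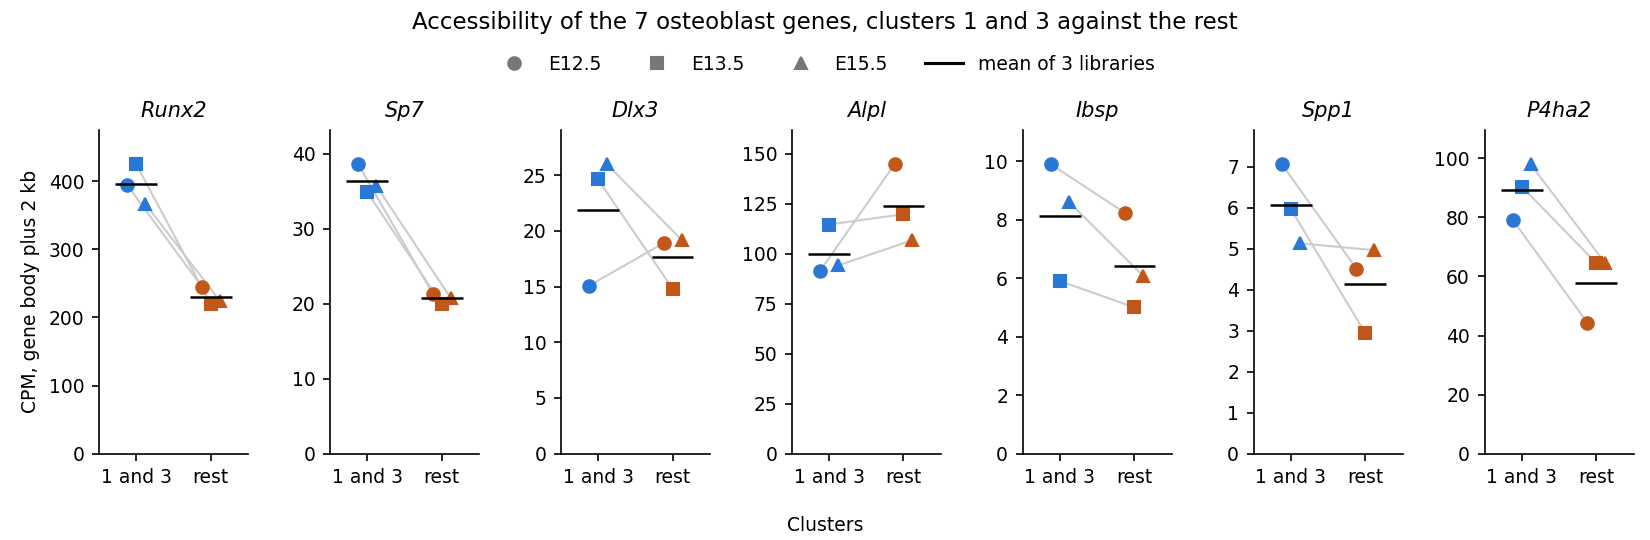
CPM over the gene body plus 2 kb (y axis, from 0, a scale per gene) in clusters 1 and 3 (blue) and in the rest (orange), with 1 point per library joined by library and a black line at the mean of the 3 libraries. Runx2 sits between 367 and 425 CPM in clusters 1 and 3 and between 220 and 245 CPM in the rest, whereas the Alpl points of both sides overlap.

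The other 4 genes were not called. Spp1 (ENSMUSG00000029304.14, chr5:104435118-104441050, plus strand) had 7.06, 5.98 and 5.13 CPM in clusters 1 and 3 against 4.52, 2.94 and 4.97 CPM in the rest. Its libraries did not overlap, as was so for Runx2, Sp7 and P4ha2, 4 of 7 members, while 11% of all genes tested had every library of clusters 1 and 3 above the rest. The log2 fold change was 0.61 ± 0.34 (SE, edgeR adjusted p = 0.306), resting on 126 fragments in clusters 1 and 3 and 169 in the rest.

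Dlx3 (ENSMUSG00000001510.8, chr11:95120119-95125296, plus strand) differed in direction between libraries. It measured 15.1, 24.6 and 25.97 CPM in clusters 1 and 3 and 18.9, 14.8 and 19.2 CPM in the rest, so that the sides overlapped and the E12.5 value was the lower one. The E12.5 value rested on 32 fragments. Its log2 fold change was 0.42 ± 0.22 (SE, edgeR adjusted p = 0.268). With the 10 clusters weighted equally it was 0.89 (edgeR adjusted p = 0.0132), where 2828 of 18226 genes were called higher. Cluster 11, with 1 Dlx3 fragment, then counts as much as the others.

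Ibsp (ENSMUSG00000029306.8, chr5:104299171-104311469, plus strand) was measured at 9.89, 5.90 and 8.61 CPM against 8.22, 4.998 and 6.07 CPM in the rest. It was higher within each of the 3 libraries, but the sides overlapped, and the log2 fold change was 0.37 ± 0.30 (SE, edgeR adjusted p = 0.517).

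Alpl (ENSMUSG00000028766.10, chr4:137741733-137796384, minus strand), the tissue-nonspecific alkaline phosphatase gene, was the 1 member with a negative estimate. It measured 91.4, 115 and 94.1 CPM in clusters 1 and 3 and 145, 120 and 107 CPM in the rest. The value was lower in clusters 1 and 3 within each library, the sides overlapped, and the log2 fold change was -0.25 ± 0.15 (SE, edgeR adjusted p = 0.337). With the 10 clusters weighted equally the sign turned (0.14, edgeR adjusted p = 0.646), with cluster 11 again counting as much as the others, on 10 Alpl fragments.

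Between genes, levels are given per kb of counted span. Spans ran from 7.18 kb (Dlx3) to 320.8 kb (Runx2), and the 2 kb upstream makes up more of a short span. The part of span length in the levels per kb was not tested. In clusters 1 and 3, all libraries together, Dlx3 had 3.36, Sp7 2.83, P4ha2 2.73, Alpl 1.87, Runx2 1.26, Spp1 0.734 and Ibsp 0.498 CPM per kb. Ibsp and Spp1, the genes of both acidic matrix proteins, thus had the lowest level per kb of the 7 genes. In the rest the corresponding levels were 2.32, 1.62, 1.89, 2.05, 0.695, 0.474 and 0.389 CPM per kb.

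Across the 10 clusters the members did not share 1 order. Runx2 was highest in cluster 1 (456 ± 80.8 CPM, SD, 3 libraries, with 513, 491 and 364 CPM) and next in cluster 3 (375 ± 6.59 CPM, with 371, 383 and 372 CPM). The ranges of those 2 clusters overlapped, and the range of cluster 3 lay above that of the next, cluster 8 (231 to 367 CPM). The 367 CPM came from 2 nuclei at E12.5, on 24 fragments, 20 of them in 1 nucleus. From cluster 8 down, each of the other clusters overlapped its neighbour in the order.

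Sp7 was highest in cluster 7 (49.6 ± 17.1 CPM, SD), followed by cluster 3 (38.1 ± 6.61 CPM) and cluster 1 (25.7 ± 15.54 CPM), with overlapping ranges. All 6 chondrocyte markers and 5 of 6 epithelial markers were raised in cluster 7, and its leading genes included Cldn3, Krt19 and Matn3. Within cluster 1, Sp7 measured 8.70 CPM at E12.5 on 3 fragments, 29.2 CPM for E13.5 and 39.2 CPM for E15.5.

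P4ha2 was highest in cluster 1 (111 ± 14.8 CPM, SD), then in cluster 10 (81.1 ± 41.2 CPM), where all 6 muscle markers were raised, and in cluster 3 (74.8 ± 5.97 CPM). The range of cluster 10 overlapped those of clusters 1 and 3. The 3 libraries of cluster 1 (95.7 to 125 CPM) all lay above those of cluster 3 (68.4 to 80.2 CPM).

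Alpl had its highest mean in cluster 5 (168 ± 14.4 CPM, SD), where all 6 erythroid markers were raised, then in cluster 9 (160 ± 37.9 CPM), where all 6 neural progenitor markers were raised, with cluster 6 (151 ± 78.5 CPM) and cluster 7 (146 ± 36.2 CPM) next. These ranges overlapped. Cluster 3 (108 ± 16.1 CPM) and cluster 1 (82.5 ± 16.5 CPM) lay lower in the order. Dlx3 had its highest mean in cluster 6 (28.9 ± 17.0 CPM) and Ibsp too (18.3 ± 16.6 CPM), with 47.6 and 36.6 CPM in the 5 nuclei of cluster 6 at E12.5, on 13 and 10 fragments. Spp1 had its highest mean in cluster 3 (6.46 ± 1.30 CPM), while single libraries reached 9.78 CPM in cluster 9 and 11.2 CPM in cluster 10. The 11.2 CPM amounts to 1 fragment, in the 2 nuclei of cluster 10 at E12.5. The ranges of clusters 3, 9 and 10 overlapped.

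**Figure D2:**
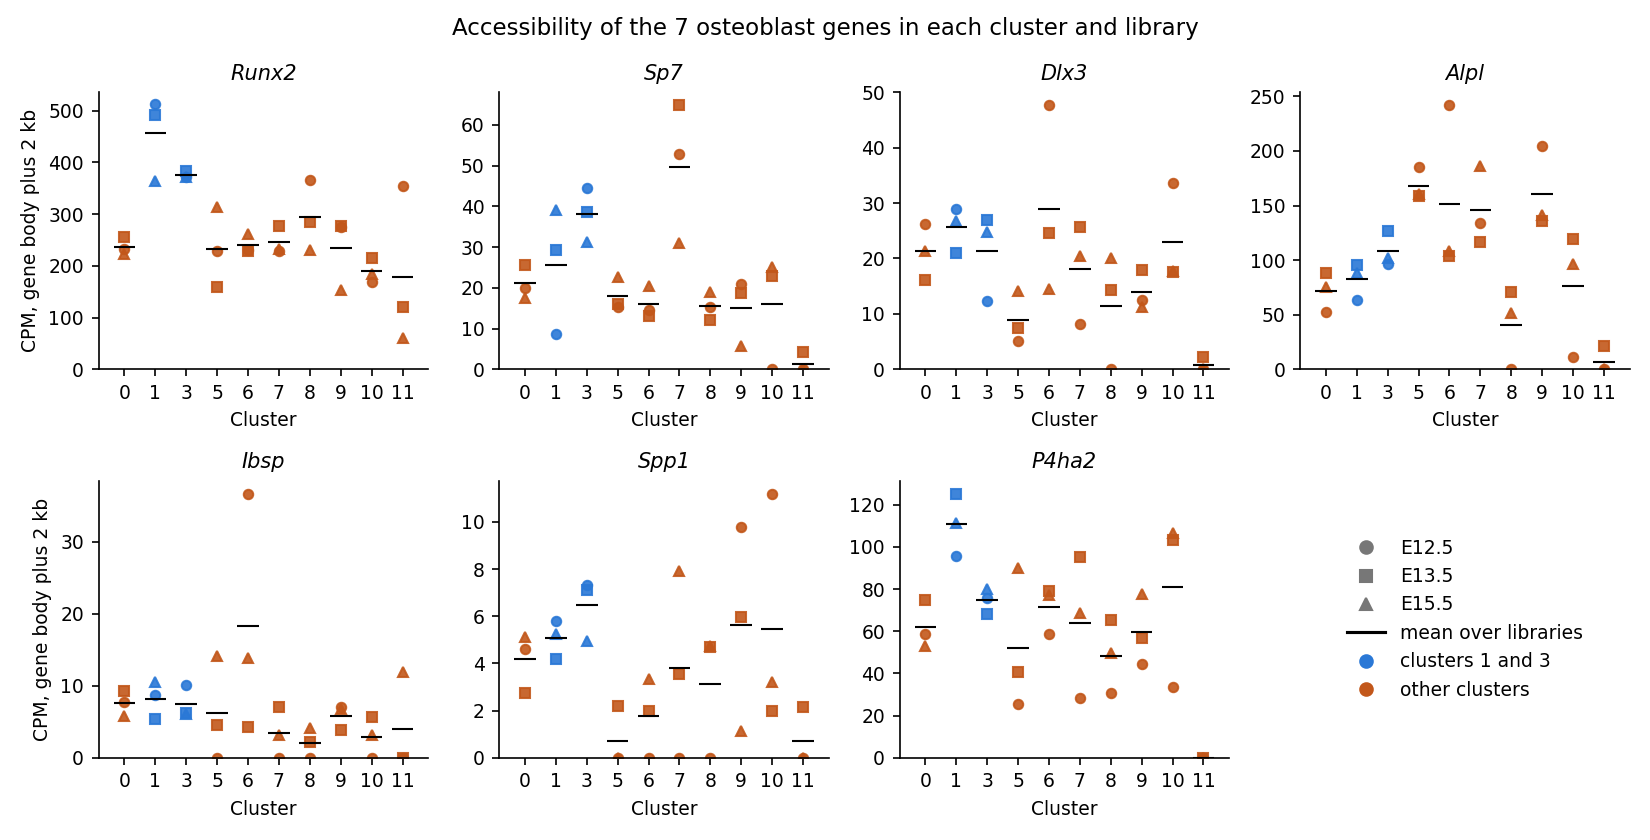
CPM over the gene body plus 2 kb (y axis, from 0, a scale per gene) in each of the 10 clusters (x axis), with 1 point per library and a black line at the mean; clusters 1 and 3 are blue and the other clusters orange. Runx2 is highest in cluster 1 (364 to 513 CPM), Sp7 in cluster 7 (31.0 to 64.8 CPM) and Alpl in cluster 5 (159 to 185 CPM).

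Most nuclei carried a Runx2 fragment. With each nucleus thinned to 10000 fragments, 79.3% of 251 nuclei in cluster 1 (exact binomial interval 73.7% to 84.1%, counting error only) and 72.1% of 208 nuclei in cluster 3 (65.5% to 78.1%) had at least 1. Cluster 7 had the same share as cluster 3 (72.1% of 104 nuclei, 62.5% to 80.5%), and the intervals of clusters 0, 6, 8, 9, 10 and 11, with shares of 50% to 68.5%, also overlapped that of cluster 3. The interval of cluster 5 did not. In cluster 5, with raised erythroid markers, the share was 57.5% of 179 nuclei (49.9% to 64.9%), and in the rest as a whole 64.5%. By library, cluster 5 had 77.8% of 9, 55% of 160 and 80% of 10 nuclei, against 68%, 71.4% and 76% in cluster 3. It was thus lower than cluster 3 at E13.5 only. Thinning left out 4, 0 and 7 nuclei in clusters 1, 3 and 5. Before thinning their shares were 92.9%, 93.8% and 85.5%, at medians of 57306, 105158 and 59054.5 unique fragments per nucleus. For Sp7 the thinned share was highest in cluster 7 (24.0% of 104 nuclei, 16.2% to 33.4%), where its level was also highest, with 18.8% in cluster 3, 15.9% in cluster 1, 12.98% in cluster 0 and 3.91% in cluster 5. The Sp7 intervals of clusters 7, 3 and 1 overlapped.

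The contrast was also fitted with cluster 1 and cluster 3 alone. Against the rest, cluster 1 gave log2 fold changes of 1.01 for Runx2 (edgeR adjusted p = 0.00142), 0.96 for P4ha2 (0.003) and 0.55 for Sp7 (0.336). Cluster 3 gave 0.75 for Runx2 (edgeR adjusted p = 0.000939), 0.39 for P4ha2 (0.106) and 0.90 for Sp7 (0.00432). Runx2 was thus called for either cluster, P4ha2 for cluster 1 and Sp7 for cluster 3, where 3.13% of all genes were called higher for cluster 1 and 7.44% for cluster 3.

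Set directly against each other, clusters 3 and 1 showed no called member, where 2.5% of 18451 genes were called higher in cluster 3 and 3.05% lower. At an unadjusted p under 0.05 there was 1 member with edgeR and 1 with DESeq2, which called 0, where 25.3% of the 18451 genes had such a p with edgeR and 2852 of them with DESeq2. P4ha2 came nearest with a log2 fold change of -0.61 ± 0.18 (SE, edgeR adjusted p = 0.0507), lower in cluster 3 in 3 of 3 libraries. The adjusted p was 0.000528 without the E12.5 library, in which cluster 1 had 10 nuclei, and 0.0435 with no library block. At the promoter, where levels are scaled to promoter fragments, the estimate for P4ha2 had the other sign (0.82). Scaled to gene fragments, the 500 bp around its annotated start had 1.75 CPM in cluster 1 and 1.52 CPM in cluster 3. The 500 bp around the start at 54100924 had 9.84 and 6.89 CPM. The part of the scaling in the sign was not tested. Over the gene body plus 2 kb, the estimate for Sp7 was 0.31 ± 0.28 (edgeR adjusted p = 0.508) and for Alpl 0.36 ± 0.18 (adjusted p = 0.211).

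**Figure D3:**
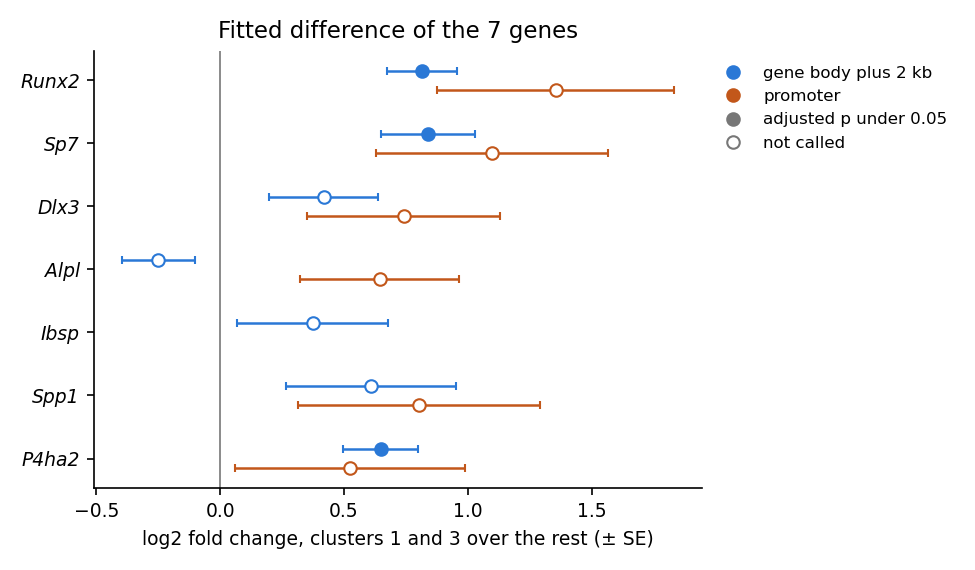
Fitted log2 fold change of clusters 1 and 3 over the rest (x axis) with its SE for each gene (y axis), for the gene body plus 2 kb (blue) and the promoter (orange); filled points have an adjusted p under 0.05. Runx2, Sp7 and P4ha2 are filled for the gene body, no promoter is filled, and Ibsp has no promoter fit.

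Promoters, the 1000 bp upstream to 100 bp downstream of the annotated gene start, held few fragments, and their CPM is scaled to the total of promoter fragments. At the Runx2 promoter clusters 1 and 3 had 17.7, 16.9 and 14.3 CPM, on 5, 36 and 19 fragments, and the rest had 9.63, 7.65 and 3.8 CPM, on 4, 40 and 13 fragments. The sides did not overlap, and the log2 fold change was 1.35 ± 0.48 (SE, edgeR adjusted p = 0.0706). Counted over 1000 bp on either side of the start it was 1.599 ± 0.44 (adjusted p = 0.00903).

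None of the 6 members tested at the promoter was called, where 4.81% of 15707 promoters were called higher and 2.11% lower. Before adjustment, 3 members (Runx2, Sp7 and Alpl) had p under 0.05 in edgeR, and DESeq2 had 1 and called 0. Over all promoters 18.1% had such a p in edgeR and 9.61% in DESeq2. Ibsp had too few promoter fragments (24 in clusters 1 and 3, 45 in the rest) to be tested. Sp7 had a log2 fold change of 1.098 ± 0.47 (SE, edgeR adjusted p = 0.168), Dlx3 0.74 ± 0.39 (0.306) and Spp1 0.80 ± 0.49 (0.406). Alpl, negative over its gene body, was estimated at 0.64 ± 0.32 at its promoter (edgeR adjusted p = 0.269), with 38.9, 35.7 and 32.3 CPM against 14.4, 22.4 and 25.4 CPM, without overlap. Scaled to gene fragments, the 500 bp around its start had a ratio of 1.19 (0.942 to 1.51, counting error only). At E12.5 that stretch had 2.83 CPM in clusters 1 and 3, on 6 fragments, and 4.52 CPM in the rest, on 11. The overlapping window at chr4:137796233-137796732 had 1.29 (1.01 to 1.65), with 4.24 and 2.46 CPM at E12.5. The part of the scaling in the Alpl estimate was not tested.

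The annotated gene start of P4ha2 is the start of 1 transcript, and 6 other transcript starts lie near 54100924. At the annotated start the log2 fold change was 0.52 ± 0.46 (SE, edgeR adjusted p = 0.623). At the start of the principal transcript, an alternative chosen after seeing the data, it was 0.81 ± 0.25 (adjusted p = 0.0271), with 80.8, 53.5 and 48.9 CPM in clusters 1 and 3 and 22.8, 28.7 and 38.9 CPM in the rest.

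Each locus was also read in windows of 500 bp, from 10 kb upstream to 2 kb downstream of the gene, counting fragments with an insertion in the window, as CPM of the gene fragments. The most accessible window of the Runx2 locus, chr17:44776987-44777486, held the start of Supt3, a gene on the other strand that overlaps 12.4% of the Runx2 span. It was lower in clusters 1 and 3 (16.9 CPM, 366 fragments) than in the rest (21.7 CPM, 975 fragments), a ratio of 0.780 (95% interval 0.690 to 0.881, counting error only). By cluster, cluster 3 (10.7 CPM) lay below the rest and cluster 1 (25.5 CPM) above it. The whole part of the Runx2 span that overlaps Supt3 had a ratio of 1.27 (1.18 to 1.38).

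Along Runx2 the ratio of clusters 1 and 3 to the rest differed between stretches. It was 1.39 (1.32 to 1.47) upstream of the proximal start, a stretch that holds the distal start and the whole Supt3 part, and 1.42 (1.32 to 1.53) in that stretch without the Supt3 part. It was 1.88 (1.80 to 1.97) from the proximal start to the end of the coding transcripts and 2.21 (2.10 to 2.34) in the 108 kb beyond them, inside the annotated gene. For the whole span it was 1.81 (1.76 to 1.87), and 1.89 (1.83 to 1.95) without the Supt3 part. Runx2 has a pair of promoters, the distal used by the bone isoform. The 500 bp around the distal start had 55 fragments in clusters 1 and 3 and 37 in the rest, a ratio of 3.09 (2.0 to 4.82), and the 500 bp around the proximal start at 44736648 had 94 and 121, a ratio of 1.61 (1.22 to 2.13).

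The highest window of clusters 1 and 3 in this locus outside the Supt3 start lay in an intron 196.6 kb from the distal start, at chr17:44617987-44618486. It measured 4.24, 4.74 and 11.5 CPM in clusters 1 and 3 and 1.64, 1.03 and 2.02 CPM in the rest. The sides did not overlap, and the E15.5 value was the highest of all 6. By cluster it was 10.6 CPM in cluster 1, 3.95 CPM in cluster 6, 3.93 CPM in cluster 3 and at most 1.38 CPM in the other 7. The window was chosen for its level in clusters 1 and 3, so its ratio of 4.74 (3.51 to 6.46) is a description.

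To read windows in libraries that did not pick them, windows were ranked on E13.5 alone and then measured at E12.5 and E15.5. This was chosen after seeing the data, and the clusters themselves were drawn from all 3 libraries. In the Runx2 locus 114 of 255 windows with at least 20 fragments at E13.5 (44.7%) had a counting interval above 1, and in the Sp7 locus 19 of 44 (43.2%), where the share over the standard chromosomes was 12.9%. The share was 36.4% for Dlx3 (12 of 33), 20% for P4ha2 (14 of 70) and 12.6% for Alpl (15 of 119). Of the 114 Runx2 windows, 64 (56.1%) were also higher at both E12.5 and E15.5, and of the 19 Sp7 windows, 14 (73.7%), where the share over the standard chromosomes was 42.3%. The share lay below 42.3% for Dlx3 (4 of 12, 33.3%), P4ha2 (4 of 14, 28.6%) and Alpl (4 of 15, 26.7%). Spp1 had 1 such window, which was higher at both, but on 1 fragment against 0 at E12.5. At E15.5 it had 7 against 15, a ratio of 1.15 (0.396 to 2.99). Ibsp had 0 such windows.

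The Runx2 windows with the highest lower bound lay 222.1 kb and 256.6 kb from the distal start. Both were in introns of the annotated gene, in the 108 kb beyond the coding transcripts. The first had 37 and 5 fragments at E13.5, a ratio of 15.1 (5.90 to 49.1), and 16 and 7 in the other libraries, a ratio of 4.90 (1.91 to 14.1). At E12.5 alone it had 3 and 4 fragments. The second had 25 and 3 fragments at E13.5, a ratio of 17.0 (5.17 to 87.7), and 16 and 5 in the other libraries, a ratio of 6.86 (2.40 to 23.9). The first Sp7 window, 11.3 kb from the gene start and just beyond its end, went from 1.88 (1.41 to 2.50) to 1.601 (1.15 to 2.22). By cluster, that Sp7 window was highest in cluster 7 (12.6 CPM), with 10.1 CPM in cluster 1 and 5.93 CPM in cluster 3. Of the 14 windows picked, these 3 kept an interval above 1 in the other libraries, and those of Dlx3, P4ha2, Spp1 and Alpl did not, nor did the Runx2 window at 78.6 kb and the Sp7 window at 4.83 kb. Alpl's first window, at 12.4 kb, went from 3.18 (2.10 to 4.89) to 0.689 (0.433 to 1.07).

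The 3 intron stretches of Runx2 that stood apart are printed because most fragments of the gene lay outside its promoters, although the ratio at the distal start was larger than that of the whole span. Each is 300 bases centred on the middle insertion of its window, on the minus strand of mm10 (RefSeq GRCm38.p6), with matches to the RUNX core TGTGGT on either strand in capitals.
Runx2 intron, 196.6 kb from the start, chr17:44618181-44618480: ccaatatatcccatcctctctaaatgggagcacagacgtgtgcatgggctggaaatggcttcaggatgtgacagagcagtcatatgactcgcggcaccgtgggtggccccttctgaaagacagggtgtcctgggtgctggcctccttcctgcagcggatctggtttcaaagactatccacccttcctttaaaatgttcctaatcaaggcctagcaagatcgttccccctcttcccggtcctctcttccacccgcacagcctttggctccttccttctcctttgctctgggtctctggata
Runx2 intron, 222.1 kb from the start, chr17:44592554-44592853: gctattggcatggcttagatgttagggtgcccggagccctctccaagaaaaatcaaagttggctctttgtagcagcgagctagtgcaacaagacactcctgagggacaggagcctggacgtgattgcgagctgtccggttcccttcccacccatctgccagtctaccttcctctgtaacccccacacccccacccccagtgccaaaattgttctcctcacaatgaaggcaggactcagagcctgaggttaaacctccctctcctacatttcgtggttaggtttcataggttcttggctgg
Runx2 intron, 256.6 kb from the start, chr17:44558063-44558362: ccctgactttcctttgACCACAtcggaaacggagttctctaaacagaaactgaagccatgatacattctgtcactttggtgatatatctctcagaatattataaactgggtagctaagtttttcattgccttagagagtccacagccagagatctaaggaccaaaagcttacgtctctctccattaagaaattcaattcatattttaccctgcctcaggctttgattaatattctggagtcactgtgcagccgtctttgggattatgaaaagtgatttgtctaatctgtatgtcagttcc
The RUNX core was found 1 time, in the third stretch, and in 21.4% of the 1740 stretches of 300 bases that tile the 7 loci. The homeodomain core and the GC box were found in none of the 3.

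**Figure D4:**
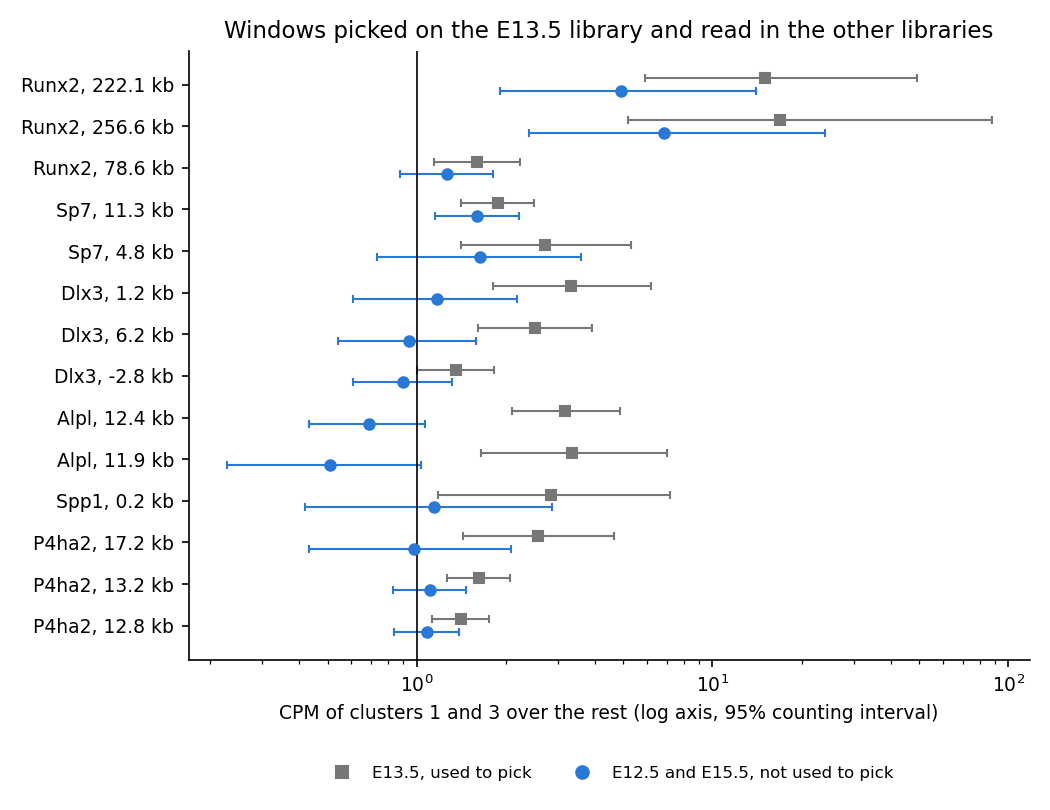
Ratio of CPM in clusters 1 and 3 to the rest (x axis, log scale) with its 95% counting interval for windows picked at E13.5 (gray squares), named by gene and distance from the gene start (y axis), and the same windows at E12.5 and E15.5 together (blue circles). In the libraries that did not pick them, the first 2 Runx2 windows fall from 15.1 and 17.0 to 4.90 and 6.86, the Runx2 window at 78.6 kb goes from 1.599 to 1.27 (0.880 to 1.82), and the Alpl window at 12.4 kb falls from 3.18 to 0.689.

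In the Alpl locus the most accessible window over the clusters lay in an intron 44901 bp from the gene start, at chr4:137751233-137751732. It held 40 fragments of clusters 1 and 3 and 419 of the rest, a ratio of 0.198 (0.140 to 0.275). Of the 419, 357 came from E13.5. Without that library the 15 and 62 fragments gave a ratio of 0.518 (0.274 to 0.922). In cluster 5 it reached 38.2 CPM, against 2.08 CPM in cluster 1, 1.68 CPM in cluster 3 and at most 8.93 CPM in the others. A second intron window, at chr4:137765733-137766232, had 16.7 CPM in cluster 9 and at most 5.21 CPM elsewhere. The start of Alpl itself was at 5.90 CPM in cluster 1, 4.89 CPM in cluster 3, 7.50 CPM in cluster 7 and 8.60 CPM in cluster 9. With clusters 5 and 11 left out of the rest, the log2 fold change of the gene was -0.16 ± 0.14 (SE, edgeR adjusted p = 0.591).

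In the P4ha2 locus the highest windows lay 12.75 kb and 13.25 kb from the gene start, with ratios of 1.25 (1.06 to 1.47) and 1.37 (1.14 to 1.64), and at the principal start, with 1.42 (1.17 to 1.73). At 12.75 kb and 13.25 kb cluster 1 had 16.8 and 14.3 CPM, above the rest (8.77 and 6.76 CPM). Cluster 3 had 6.65 and 5.53 CPM there, below the rest. At the principal start cluster 3 had 6.73 CPM, above 5.65 CPM in the rest. The start of a shorter transcript at 54107320 had 45 fragments in clusters 1 and 3 and 33 in the rest, a ratio of 2.83 (1.77 to 4.58). It was 4.46 (2.16 to 9.75) without E13.5, on 25 and 12 fragments, and 1.91 (1.02 to 3.56) without E15.5, on 23 and 23. Sp7 had its highest windows 9.67 kb upstream (1.28, 1.06 to 1.55) and just downstream (1.75, 1.42 to 2.16). In the upstream window cluster 1 had 11.9 CPM and cluster 3 had 5.53 CPM, against 6.41 CPM in the rest. In the downstream window they had 10.1 and 5.93 CPM, against 4.38 CPM in the rest. The upstream window turned to 0.977 (0.769 to 1.23) without E15.5, and the downstream window kept a ratio of at least 1.601 with any 1 library left out. At its start the 59 and 69 fragments gave a ratio of 1.78 (1.23 to 2.55). Dlx3 had a ratio of 1.61 (1.19 to 2.18) at its start, on 80 and 103 fragments, which turned to 0.957 (0.543 to 1.63) without E13.5, on 21 and 47 fragments. No window of Ibsp or Spp1 among the 3 highest exceeded 1.16 CPM in clusters 1 and 3.

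**Figure D5:**
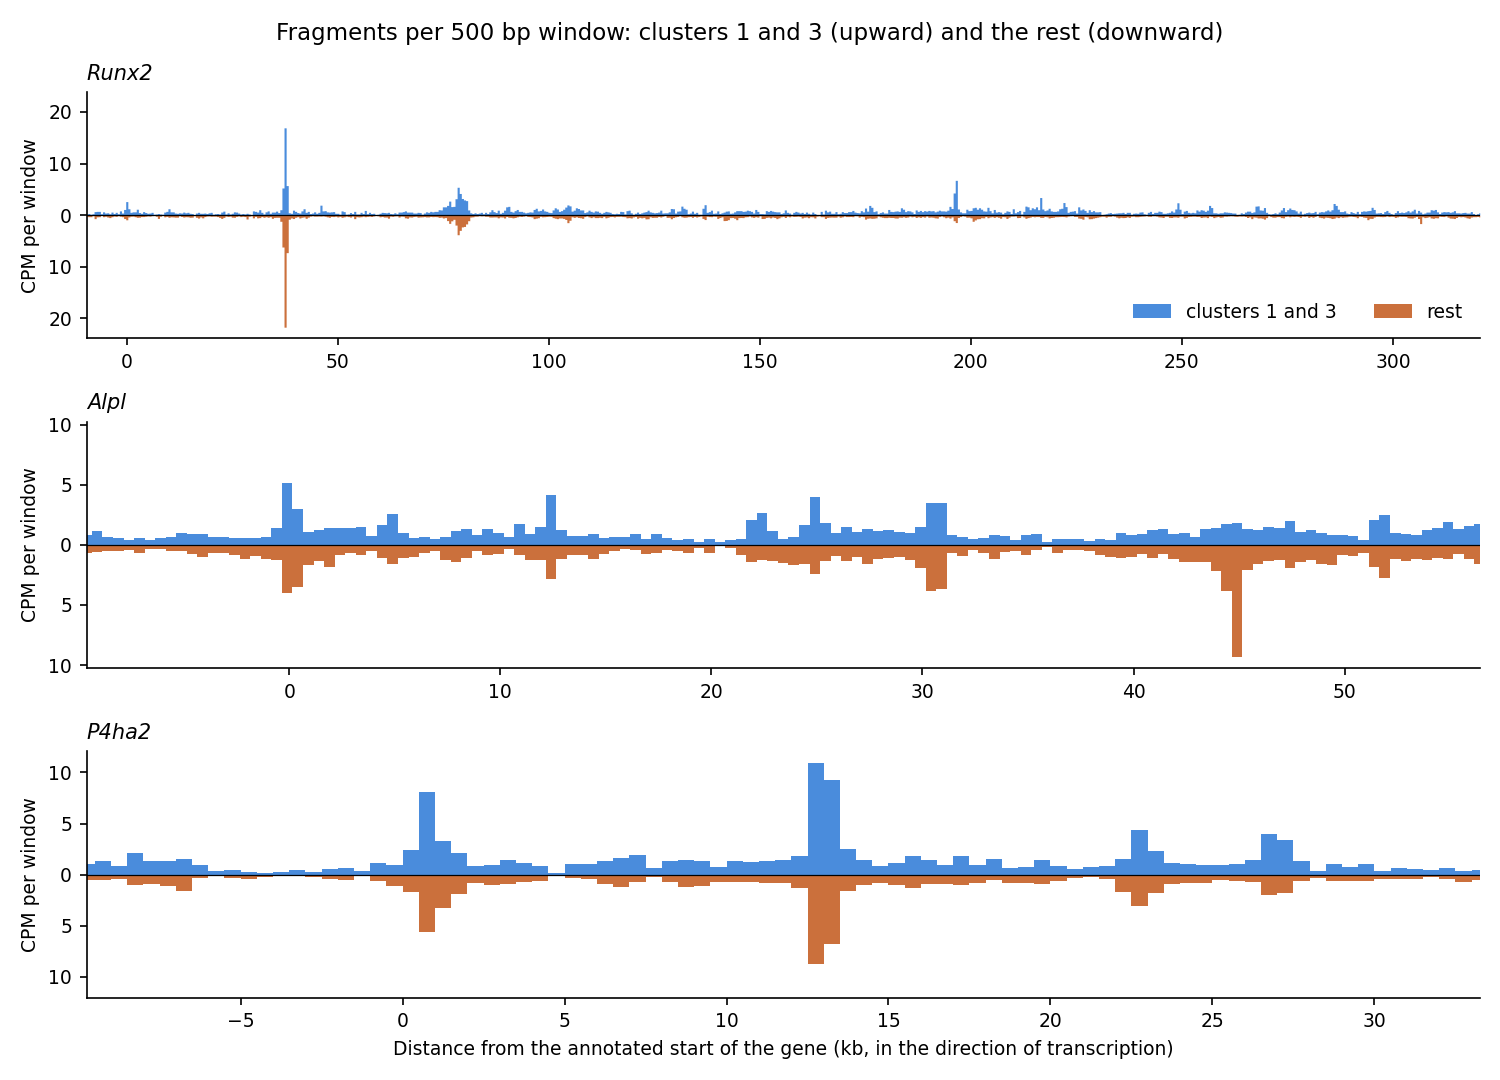
CPM per 500 bp window (y axis) in clusters 1 and 3 (blue, upward) and in the rest (orange, downward) along Runx2, Alpl and P4ha2, against distance from the annotated gene start in kb (x axis). The tallest Runx2 window, 37.6 kb from the start, is that of Supt3 (16.9 and 21.7 CPM, with 25.5 CPM in cluster 1 and 10.7 CPM in cluster 3). The intron window of Alpl 44.9 kb from the start is higher in the rest (1.85 and 9.32 CPM), mostly from E13.5.

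Between stages there was 1 library each, so ratios carry counting intervals and no test. Counting intervals lay off 1 for many genes: within clusters 1 and 3, 18.3% of genes were above 1 and 18.3% below 1 for E15.5 over E13.5, and 16.8% above and 16.1% below for E13.5 over E12.5. Runx2 had a ratio of 0.864 (0.823 to 0.907) for E15.5 over E13.5 in clusters 1 and 3. In cluster 1 it was 0.740 (0.693 to 0.791) and in cluster 3 0.971 (0.904 to 1.04). A single nucleus held 417 of the 2456 Runx2 fragments of cluster 1 at E13.5 (17%), and the next highest nucleus of clusters 1 and 3 held 143. Without it, an alternative added after seeing the data, the ratio was 0.884 (0.826 to 0.947) in cluster 1 and 0.932 (0.888 to 0.979) in clusters 1 and 3, and the E13.5 level of cluster 1 was 411 CPM in place of 491 CPM. The nucleus held at most 4 fragments of any Runx2 window or start described above, but 144 in the stretch upstream of the proximal start. Without it the ratio of clusters 1 and 3 to the rest was 1.73 (1.68 to 1.78) for the whole span. For the stretch upstream of the proximal start it was 1.30 (1.23 to 1.38), and for the Supt3 part 1.19 (1.09 to 1.29). The share of Runx2 windows above 1 at E13.5 was not recounted without it. For E15.5 over E13.5, Sp7 went the other way from Runx2 in cluster 1, with 1.34 (1.06 to 1.70), and had 0.810 (0.631 to 1.03) in cluster 3. Within cluster 1, 15.2% of genes were above 1 and 17.1% below, and within cluster 3, 14.8% and 13.9%.

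Alpl had a ratio of 0.821 (0.747 to 0.903) for E15.5 over E13.5 in clusters 1 and 3, Ibsp 1.46 (1.02 to 2.08), P4ha2 1.08 (0.983 to 1.19), Dlx3 1.06 (0.871 to 1.27) and Spp1 0.859 (0.556 to 1.30). Without the nucleus with the most P4ha2 fragments (76 of 1165 at E13.5), the P4ha2 ratio was 1.15 (1.05 to 1.27). For E13.5 over E12.5, Dlx3 had 1.63 (1.13 to 2.43) and Alpl 1.25 (1.08 to 1.46). By cluster, Dlx3 had 0.724 (0.379 to 1.55) in cluster 1, on 10 fragments at E12.5, and 2.17 (1.399 to 3.54) in cluster 3. The Ibsp ratio for E15.5 over E13.5 was 1.95 (1.17 to 3.30) in cluster 1 and 0.970 (0.524 to 1.71) in cluster 3, and in clusters 1 and 3 it was 1.29 (0.881 to 1.86) without the 1 nucleus with the most Ibsp fragments (7). In the rest, E15.5 over E13.5 was 0.891 (0.840 to 0.945) for Alpl, the same direction as in clusters 1 and 3, and 1.30 (1.11 to 1.51) for Dlx3, 1.69 (1.22 to 2.34) for Spp1 and 1.02 (0.980 to 1.06) for Runx2. There 24.5% of genes were above 1 and 26.6% below. For E13.5 over E12.5 the rest had 0.783 (0.576 to 1.09) for Dlx3 and 0.828 (0.741 to 0.927) for Alpl, with 19.3% of genes above 1 and 18.1% below. Whether the ratios differ between clusters 1 and 3 and the rest was not tested. The mix of clusters 1 and 3 also changed, from 10 and 25 nuclei at E12.5 to 120 and 50 at E15.5, and its part in the pooled ratios was not tested. Stage cannot be told apart from library here.

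Other genes of the pathway, from lists chosen with earlier results of these data known, are given for context. Of 15 osteoblast regulators tested, 5 were higher, 0 lower and 10 not called (median log2 fold change 0.40, against 0.00 over all genes). The counts of this list and of those that follow stand beside 5.53% of all genes called higher and 2.58% called lower. The largest changes were those of the mesenchyme factors Twist1 (1.80 ± 0.21, SE, edgeR adjusted p = 4.34e-11) and Twist2 (1.25 ± 0.16) and of Msx1 (0.78 ± 0.22). Twist1 and Twist2 hold back osteoblast differentiation, and they are also among the mesenchyme markers above. Cbfb, the partner subunit of the Runx factors, was at 0.40 ± 0.16 (adjusted p = 0.103), and Runx3 was called at 0.64 ± 0.15 (adjusted p = 0.00102).

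Of 12 bone matrix genes, 7 were higher, 0 lower and 5 not called (median 0.91). Omd, encoding a keratan sulfate proteoglycan of bone, had 1.603 ± 0.27 (SE, edgeR adjusted p = 3.55e-06), Postn 1.52 ± 0.21 and the collagen I gene Col1a2 1.47 ± 0.17. Col1a1 and Col1a2, both among the 7, are also mesenchyme markers used above to describe clusters 1 and 3. The osteocalcin gene Bglap, a marker of mature osteoblasts, had -0.00 ± 0.51 (adjusted p = 0.999). It lies in a cluster of near-identical copies, so its fragments are uncertain.

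Of 12 collagen processing genes, 7 were higher, 0 lower and 5 not called (median 0.58). Lox, which cross-links collagen, had 1.73 ± 0.21 (SE, edgeR adjusted p = 5.69e-10), Adamts2, which trims procollagen, 1.21 ± 0.15, and Plod2, a lysyl hydroxylase, 0.70 ± 0.15. Among the sister genes of P4ha2, P4ha3 was called (0.67 ± 0.16, adjusted p = 0.00217) and P4ha1 was not (-0.08 ± 0.15, adjusted p = 0.805).

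Of 8 mineral deposition genes, 2 were higher, 0 lower and 6 not called (median -0.03). The 2 were Enpp1, which makes pyrophosphate (0.81 ± 0.16, SE, edgeR adjusted p = 0.000149), and Phex (0.67 ± 0.15, adjusted p = 0.000579). Of 11 signal and receptor genes tested, 3 were higher, 0 lower and 8 not called (median 0.32): Bmp4 (1.14 ± 0.18, SE, edgeR adjusted p = 1.64e-06), the parathyroid hormone receptor gene Pth1r (0.81 ± 0.15) and the cadherin gene Cdh11 (0.71 ± 0.15).

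Genes whose level over the 10 clusters was most like that of each member, at least 1 Mb away, are given as a description. The 10 points share libraries and depth, and cluster 11 was the shallowest, so Pearson's r on log2(CPM + 1) is given with it and without it. Runx2 was most like Kera, which encodes keratocan (r = 0.97, 0.98 without cluster 11), Washc3 (0.97, 0.94) and C1qtnf2 (0.96, 0.96). Sp7 was most like Mgp, encoding matrix Gla protein (0.98, 0.95), Trpv1 (0.98, 0.93) and Ice2 (0.97, 0.91), and P4ha2 was most like Tut4 (0.99, 0.91), P3h2, a prolyl 3-hydroxylase (0.99, 0.94), and Trim68 (0.99, 0.83). Dlx3 was most like Zfp108 (0.99, 0.96), Azin2 (0.99, 0.97) and Fmnl2 (0.99, 0.97). Alpl was most like Scd1 (0.97, 0.84), the olfactory receptor gene Olfr315 (0.97, 0.88) and Gm10260 (0.97, 0.84). Ibsp was most like Gk2 (0.98, 0.97), Rnf112 (0.96, 0.96) and Kat6b (0.96, 0.92), and Spp1 most like Pygb (0.94, 0.93), the olfactory receptor gene Olfr228 (0.94, 0.96) and Apela (0.93, 0.90). Among the members themselves, Dlx3 and P4ha2 had r = 0.94 (0.73 without cluster 11) and Runx2 and Sp7 0.79 (0.56), while Alpl and Runx2 had 0.48, and -0.34 without cluster 11.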

How the data were processed

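Nuclei of 3 libraries (E12.5, E13.5 and E15.5, 1 each) were profiled by snATAC-seq. The authors deposited fragment files (unique fragments with a read count each, made with CellRanger ATAC 2.0.0 on mm10) and a table of nuclei with cluster numbers and fragment counts. The submitters' processing notes also name Seurat 4.1.0 and Signac 1.6.0. Per the study's methods, the nuclei were integrated with the spatial profiles by shared anchors and Harmony, grouped by sample. The clustering resolution, and whether the deposited numbers are the clusters of that integration, are not given in the sources used here.

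From these files, unique fragments of the 1879 nuclei in the table were counted per gene body plus 2 kb upstream and per promoter, for 21602 protein-coding genes of GENCODE vM21. Of 21938 genes, 27 with a shared symbol, 78 of the Pcdh and Ugt clusters and 231 over 500 kb were left out. Fragment totals of the table's nuclei (8603028, 66925016 and 39513357 by library) differed from the deposited tallies by at most 0.604%. Counts were summed per cluster and library and given as CPM. Nuclei are not replicates, so 6 sums (clusters 1 and 3, and the rest, in each library) were fitted with edgeR 4.0.16 (quasi-likelihood, TMM, filterByExpr, the library as a block) in R 4.3.3, with Benjamini-Hochberg adjustment at 0.05. The SE is the log2 fold change over the square root of F. The block is the library itself, which both sides share. DESeq2 1.42.0 and other scalings, filters and left-out libraries were alternatives. Each library stands for its stage, so p-values set the difference between the sides against its spread over these 3 libraries. edgeR estimates that spread with information shared over genes, so it is not the spread of the gene alone. Intervals are exact 95% intervals and cover counting error only. No doublet caller was run. Barcodes were checked for shared fragments, and 17 nuclei of clusters 1 and 3 and 20 of the rest belonged to linked groups, with 1 barcode in more than 1 library.

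The members and gene lists were chosen with earlier results of these data known. Genes named are the 7 members, up to 3 called genes of each pathway list by size of change and the 3 genes most like each member. Cbfb, Runx3, Bglap, P4ha1 and P4ha3 were named after their values were seen. Window ratios with 1 library left out were computed after seeing the data. Scripts were tested on simulated data with known changes.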

Additional observations from a re-analysis of the deposited data

Results flagged for a closer look

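Dlx3 did not keep 1 direction over the stages. Over its gene body plus 2 kb, the ratio of clusters 1 and 3 to the rest was 0.797 at E12.5, against 1.66 for E13.5 and 1.35 for E15.5. The E12.5 value rested on 32 fragments against 46. With 1 library per stage, the difference between stages was not tested.

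The Ibsp promoter had a ratio of 2.20 at E12.5 and 2.09 at E15.5, with 0.729 for E13.5 between them. In order of stage, the fragments behind these values were 3, 8 and 13 in clusters 1 and 3 and 2, 27 and 16 in the rest, and this difference between stages was not tested either.

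Clusters 2 and 4, which entered no comparison, also held fragments of every member. Runx2 was at 229 CPM there (340 fragments, 205 to 255 CPM), Sp7 at 18.9 CPM (28 fragments), Dlx3 at 12.8 CPM (19 fragments) and Alpl at 74.1 CPM (110 fragments). Ibsp was at 11.5 CPM (17 fragments), Spp1 at 5.39 CPM (8 fragments) and P4ha2 at 37.7 CPM (56 fragments). For Runx2 this lay within the 220 to 245 CPM of the rest and below the 367 CPM of the lowest library of clusters 1 and 3.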

How the results depend on the processing

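Between clusters 1 and 3 and the rest, 113 of 118 alternative values of the members over the gene body plus 2 kb kept their direction and their side of the threshold, and Runx2 was called there in each alternative fitted. At the promoter 83 of 86 did so, and the other 3 became calls. Alpl turned to 0.14 with the 10 clusters weighted equally. The counts of genes higher and lower (1115 and 520) were 732 and 276 with DESeq2, 582 and 311 with cluster 1 alone and 359 to 1037 and 148 to 496 with 1 library left out, fewest without E13.5. Cluster 3 alone gave 1445 higher and 966 lower, equal weights 2828 higher and the rest without clusters 5 and 11 733 higher. With no library block, the pairing by library was dropped and the counts were 636 and 203. For promoters (755 and 331), DESeq2 gave 280 and 75, leaving out 1 library 219 to 777 and 108 to 327, equal weights 2129 higher and scaling by gene body totals 723 lower. For cluster 3 against cluster 1 (461 and 563), no filter gave 843 higher, DESeq2 145 and 171, promoters 24 and 23, and leaving out 1 library 4 to 1570 and 0 to 1806. In that comparison, with 1 library left out, Dlx3 ranged from -0.51 to 0.13 (positive without E12.5). Ibsp likewise ranged from -0.46 to 0.19 (positive without E15.5). At the promoter, scaled to promoter fragments, Dlx3 turned to 0.39 and P4ha2 to 0.82. Scaled to gene fragments, the 500 bp around the Dlx3 start had 4.48 CPM in cluster 1 and 3.12 CPM in cluster 3. Of the stage ratios whose counting interval in clusters 1 and 3 lay off 1, those that crossed 1 were, in cluster 1 alone, Runx2 (0.957) and Dlx3 (0.724) for E13.5 over E12.5 and Dlx3 (0.924) for E15.5 over E12.5, and in cluster 3 alone Ibsp (0.970) for E15.5 over E13.5. Ratios whose interval held 1 crossed it too, such as Sp7 for E13.5 over E12.5 (0.905, and 3.36 in cluster 1, on 3 fragments at E12.5). Without the nucleus with the most Runx2 fragments, Runx2 for E13.5 over E12.5 was 0.999. With 1 library left out, the Sp7 window 9.67 kb upstream ranged from 0.977 to 1.86 and the Dlx3 start from 0.957 to 2.01. The cause of these shifts was not tested. Dropping the block left the calls of the members between clusters 1 and 3 and the rest as they were. Depth limits Ibsp and Spp1, with 154 and 126 fragments in clusters 1 and 3, and every value of cluster 1 at E12.5, from 10 nuclei.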
